A study of Mus musculus with 7 samples.

Results

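The RB and E2F family consists here of 10 genes chosen by name, namely the pocket protein genes Rb1, Rbl1 and Rbl2 and the transcription factor genes E2f1 to E2f7. Each has 1 row among the 55484 genes of the count table, and all 10 were tested. The levels were measured by RNA-seq in 4 libraries of mouse embryonic fibroblasts (MEFs), which are connective tissue cells grown from embryos, and 3 libraries of mouse embryonic stem cells (mESCs), which are pluripotent cells. Both cell types have a C57/Bl6 background according to the sample labels, which name no treatment, and the sources used here give no culture medium or feeder layer for the mESCs. The count columns end in O1 to O4 for MEFs and Y1 to Y3 for mESCs, endings that the sources do not explain and that are used below only as names. All MEF column names begin with MEF1 and all mESC ones with mESC1, which are also the titles of single samples. Whether the columns of a cell type all come from that sample is not stated.

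RB (the product of Rb1) and its relatives p107 (Rbl1) and p130 (Rbl2) bind E2F factors and hold back genes needed for S phase. Cyclin-dependent kinases phosphorylate the pocket proteins in G1 and so release E2F. E2F1, E2F2 and E2F3 are known as activators bound by RB. E2F4 and E2F5 act mostly as repressors together with p107 and p130, while E2F6 and E2F7 repress without any pocket protein. Stem cells are known for a short G1 phase and fibroblasts for a long one that responds to growth factors.

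Library totals ranged from 6528643 to 11441278 counts. Levels are given as CPM, the usual unit of counts relative to the total, here taken against the library size after scaling by edgeR's TMM method, and 3 counts, taken as the floor of a library, corresponded to 0.288 to 0.477 CPM. Floors and the intervals called counting intervals cover counting error only, while the 95% intervals of fold changes come from the edgeR fit and its spread between libraries. The markers fitted the labels, since 11 of 12 pluripotency genes were higher in mESCs (Fut4 had too few counts to be tested) and all 13 fibroblast genes were lower. The RNA protocol in the labels describes blood stem cells and not these cultures. Of 8 blood genes, Laptm5 was higher in mESCs, with 52.6 to 62.4 CPM against 0.152 to 7.19 CPM in MEFs, and Cd53 was lower. Csf1r had 6.40 to 22.6 CPM in MEFs and 9.09 to 14.3 CPM in mESCs, and the other 5, among them the pan-leukocyte marker Ptprc, stayed at or below 2.28 CPM in all 7 libraries. The summed level of the 8 blood genes was 10.2 to 31.6 CPM in MEFs and 67.6 to 77.0 CPM in mESCs, where most of it was Laptm5. Their mean log2CPM overlapped, with -0.33 to 0.92 in MEFs and 0.22 to 0.41 in mESCs. Of 4 endothelial genes, Pecam1 was higher in mESCs and Kdr was not called, and of 5 genes of early differentiation only Gata6 had enough counts to be tested and was not called. Of the other 4, Sox17 and Foxa2 had no count in MEFs and 51, 41 and 9 and 21, 18 and 4 counts in mESC Y1 to Y3, and Gata4 was also higher in every mESC library, with 18, 7 and 19 counts. The part of such cells in the results was not tested. The labels do not say whether libraries of a cell type came from separate cultures. The study's figure legends give n = 3 biological replicates for its RNA data, whereas 4 MEF columns were used here. Which columns those replicates are is not stated. The p-values thus measure the spread between these libraries, part of which may be technical. In bulk RNA a lower level in all cells and fewer cells with the transcript cannot be told apart, and the share of cells in each phase of the cycle was not measured.

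The promoter sequences of 7 of the 10 genes were matched in the RefSeq set for GRCm38.p6, which holds windows of 300 bases that lie mostly upstream of each start site and end 50 bases after it. They were searched on both strands for the letters TTTCCCGC, TTTCGCGC, TTTGCCGC and TTTGGCGC, which are forms of the E2F site, and for TTTGAA, the CHR element through which the DREAM complex of p130 and E2F4 acts on cell cycle genes. An E2F form occurred in 2.26% of all 32851 windows and the CHR letters in 17.9%. Counted by gene, over all windows of each, the shares were 2.6% and 20.2% of 27025 genes. Rbl1, E2f2, E2f3 and E2f7 held an E2F form, and E2f2, E2f3 and Rbl2 held the CHR letters. In E2f2 the E2F form and the CHR letters lay in different windows. These stretches of 60 bases, all upstream of the start site, are shown because family members are themselves known E2F targets; capitals mark the E2F form and, in E2f3, also the CHR letters, which lie 5′ of it.
Rbl1, minus strand, chr2:157204535-157204594: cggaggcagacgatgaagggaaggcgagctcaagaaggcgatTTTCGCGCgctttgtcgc
E2f3, minus strand, chr13:29986064-29986123: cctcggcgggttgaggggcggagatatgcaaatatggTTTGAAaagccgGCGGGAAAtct
E2f7, plus strand, chr10:110745209-110745268: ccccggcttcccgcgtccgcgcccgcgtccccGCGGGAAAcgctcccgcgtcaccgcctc
In E2f3 and E2f7 the capitals read as TTTCCCGC on the opposite strand. Counted from the start site, the E2F form lay at -18 to -11 in Rbl1 and at -11 to -4 in E2f3, and farther upstream, at -198 to -191, in E2f7. These 3 genes did not share a direction, as Rbl1 was higher, E2f7 lower and E2f3 not called in mESCs.

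Across the family, 3 genes were called higher in mESCs (Rb1, Rbl1 and E2f5) and 3 lower (Rbl2, E2f6 and E2f7), at a Benjamini-Hochberg adjusted p under 0.05 in the quasi-likelihood test of edgeR, run over 16580 genes. E2f1, E2f2, E2f3 and E2f4 were not called. The cell types differed so widely that 47.9% of all tested genes were called, 22.8% of them higher and 25% lower, so the family count of 6 in 10 lies near the background. Rb1 passed the filter on low counts through its mESC libraries alone and Rbl2 through its MEF libraries alone, so these 2 genes could be tested only because they were high in one cell type. The median log2 fold change of the 10 genes was 0.49, beside 0.04 over all tested genes. The median size of the change, regardless of sign, was 0.97 in the family and 0.81 over all genes.

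**Figure D1:**
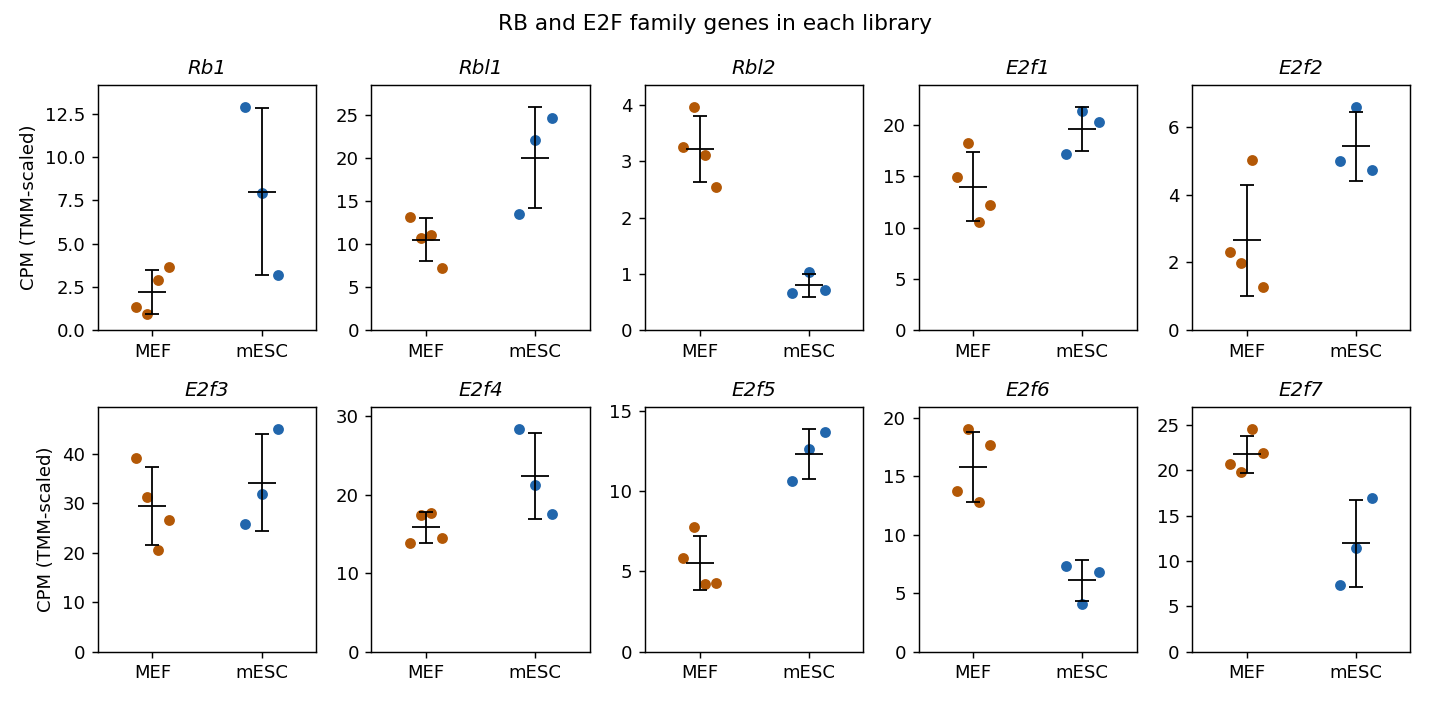
Level of each RB and E2F family gene in CPM (TMM-scaled, linear axis from 0, a scale of its own in each panel). Points are libraries (4 MEF in brown, 3 mESC in blue), and bars give the mean and SD. Rbl2, E2f6 and E2f7 lie lower in every mESC library, Rbl1 and E2f5 lie higher in every one, and the Rb1 points of mESCs spread from 3.19 to 12.9 CPM.

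Among the pocket proteins, the genes of p107 and RB were higher in mESCs and the gene of p130 was lower. Rbl2 (GRCm38, chromosome 8, 91070057 to 91123844, plus strand), whose product p130 is the pocket protein of resting cells, had 3.26, 3.96, 3.12 and 2.54 CPM in MEF O1 to O4. In mESC Y1 to Y3 it had 0.650, 1.02 and 0.708 CPM, which came from 6, 9 and 6 counts. All mESC libraries were thus lower than all MEF libraries while staying above the floor. Rbl2 was 4.01-fold lower in mESCs, with a 95% interval of 1.88 to 8.53 (log2 fold change -2.002, standard error 0.49, edgeR adjusted p = 0.00639). It was called in all 13 alternative fits, but it had passed the filter on low counts through its MEF libraries alone.

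Rbl1 (chromosome 2, 157145893 to 157204534, minus strand), whose product p107 accumulates in cycling cells, had 13.1, 10.7, 11.02 and 7.16 CPM in MEF O1 to O4 and 13.4, 22.0 and 24.7 CPM in mESC Y1 to Y3. The groups did not overlap, but mESC Y1 stood just above MEF O1. The difference was 1.90-fold, with a 95% interval of 1.21 to 2.98 (edgeR adjusted p = 0.0232). The call was lost without MEF O4, mESC Y2 or mESC Y3, with log2 fold changes of 0.77, 0.85 and 0.74 and edgeR adjusted p values of 0.0537, 0.0742 and 0.103.

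Rb1 (chromosome 14, 73183673 to 73325822, minus strand), the gene of the retinoblastoma protein, had 1.34, 0.915, 2.88 and 3.66 CPM in MEF O1 to O4 and 12.9, 7.95 and 3.19 CPM in mESC Y1 to Y3. The groups overlapped, since mESC Y3 lay below MEF O4. Scaled by library size alone they were just apart, with 3.62 CPM in mESC Y3 and 3.52 CPM in MEF O4. The counts behind these values were 14, 6, 24 and 23 in MEFs and 119, 70 and 27 in mESCs. The counting intervals of mESC Y1 (10.7 to 15.4 CPM) and mESC Y3 (2.10 to 4.63 CPM) were apart, so the spread within mESCs was wider than counting error. Rb1 was 3.66-fold higher in mESCs, with a 95% interval of 1.51 to 8.88 (log2 fold change 1.87, standard error 0.58, edgeR adjusted p = 0.0204). Without mESC Y1 the log2 fold change was 1.34 (edgeR adjusted p = 0.124), and without MEF O1 it was 1.68 (edgeR adjusted p = 0.0509). The summed level of the early differentiation genes had the same order as Rb1 over mESC Y1 to Y3, with 36.1, 23.3 and 12.6 CPM. Most of this sum came from Gata6, which was not called and had a higher mean in MEFs (30.1 CPM) than in mESCs (16.8 CPM). Gata4 did not follow the order. The part of these genes in the Rb1 level was not tested.

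The 3′ ends of Rb1 and Rbl2 overlap genes of the opposite strand, which matters in these libraries because they were primed at the poly(A) tail. Of the last 500 exonic bases of Rb1, 76.6% also lie in exons of Rcbtb2, and of those of Rbl2, 69.2% lie in exons of Aktip. No other member had more than 5.2% there, the value of E2f5. The strand setting of the counting is not given in the sources used here. Without it, reads in the overlap could have been assigned to the gene or its antisense partner, or left out. Rcbtb2 was lower in mESCs, from a mean of 23.6 to 13.9 CPM (log2 fold change -0.76, edgeR adjusted p = 0.0148), the opposite direction to Rb1. Aktip was not called, with means of 44.8 CPM in MEFs and 38.6 CPM in mESCs (edgeR adjusted p = 0.570). How these neighbours bear on the counts of Rb1 and Rbl2 was not tested.

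The summed level of the 3 pocket protein genes was 13.4 to 17.7 CPM in MEFs and 27.0 to 31.0 CPM in mESCs. The makeup of this sum also differed. Rbl2 took 18.4%, 25.5%, 18.3% and 19.0% of the pocket protein counts in MEF O1 to O4 and 2.41%, 3.30% and 2.48% in mESC Y1 to Y3, which does not depend on how libraries are scaled to each other. The share of Rbl1 overlapped between the cell types (53.6% to 74.1% in MEFs, 49.8% to 86.4% in mESCs), and so did that of Rb1. In mESC Y1 the share of Rb1 was 47.8% and that of Rbl1 49.8%, whereas in mESC Y3 they were 11.2% and 86.4%.

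The activator genes had higher means in mESCs, and none passed the test. E2f1 (chromosome 2, 154559407 to 154569892, minus strand), an activator that can also drive apoptosis, had 14.97, 18.3, 10.5 and 12.2 CPM in MEF O1 to O4 and 17.2, 21.4 and 20.3 CPM in mESC Y1 to Y3. Only MEF O2 reached into the mESC range. Its ratio of mESC to MEF was 1.40 (95% interval 0.957 to 2.05, edgeR adjusted p = 0.133).

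E2f2 (chromosome 4, 136172394 to 136196057, plus strand) had 2.30, 1.98, 5.03 and 1.27 CPM in MEFs and 4.99, 6.59 and 4.72 CPM in mESCs. MEF O3 held the overlap by itself, with 42 counts where the other MEF libraries had 8 to 24. The ratio was 2.03 (95% interval 0.965 to 4.26, edgeR adjusted p = 0.108), and without MEF O3 the log2 fold change was 1.52 (edgeR adjusted p = 0.0198).

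E2f3 (chromosome 13, 29906575 to 29986063, minus strand), whose long and short isoforms share their 3′ end and were counted together, had 39.2, 31.3, 20.6 and 26.7 CPM in MEFs and 25.8, 31.8 and 45.1 CPM in mESCs. The ranges lay almost on top of each other, and the ratio of 1.16 had a 95% interval of 0.776 to 1.74 (edgeR adjusted p = 0.542). Without mESC Y3 its log2 fold change was -0.04. A change of up to 1.74-fold is thus compatible with these libraries for E2f3, and larger ones for E2f1 and E2f2.

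E2F5 and E2F4, the E2Fs that work with p107 and p130, both had higher means in mESCs, and E2f5 was called. E2f5 (chromosome 3, 14578641 to 14606309, plus strand) had 5.85, 7.77, 4.19 and 4.29 CPM in MEFs and 10.6, 12.6 and 13.7 CPM in mESCs, with no overlap. It was 2.22-fold higher in mESCs, with a 95% interval of 1.38 to 3.59 (edgeR adjusted p = 0.0108), and called in all 13 alternative fits. E2f4 (chromosome 8, 105297663 to 105305370, plus strand) had 13.8, 17.4, 17.7 and 14.5 CPM in MEFs and 28.4, 21.2 and 17.6 CPM in mESCs. Its mESC libraries ranged from within the MEF levels to well above them, in the order of the summed level of the early differentiation genes. Most of that sum was Gata6, and Gata4 did not follow the order. The part of these genes in the E2f4 level was not tested. The ratio was 1.41 (95% interval 0.987 to 2.03, edgeR adjusted p = 0.104).

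The family genes whose products repress without a pocket protein, E2f6 and E2f7, were both lower in mESCs. This does not extend to E2f8, which like E2f7 encodes an atypical E2F. E2f8, described below and not counted in the family, was higher in every mESC library but not called. E2f6 (chromosome 12, 16810963 to 16839742, plus strand), whose product recruits a polycomb complex to germline and cell cycle genes, had 13.7, 19.1, 12.8 and 17.7 CPM in MEFs and 7.37, 4.09 and 6.84 CPM in mESCs. Its groups stood apart, and it was 2.58-fold lower in mESCs, with a 95% interval of 1.62 to 4.12 (log2 fold change -1.37, standard error 0.31, edgeR adjusted p = 0.00364). It was called in all 13 alternative fits.

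E2f7 (chromosome 10, 110745439 to 110787384, plus strand), an atypical E2F that binds DNA without a DP partner and limits E2F targets late in S phase, had 20.7, 19.8, 24.6 and 21.9 CPM in MEFs and 7.37, 11.5 and 17.0 CPM in mESCs. The MEF libraries were close to each other while the mESC libraries spread 2.31-fold, and the groups did not overlap. It was 1.82-fold lower, with a 95% interval of 1.17 to 2.84 (edgeR adjusted p = 0.0289). The call was lost without MEF O3, mESC Y1 or mESC Y2, with edgeR adjusted p values of 0.0644, 0.0932 and 0.0758. Scaled by library size alone, E2f7 overlapped between the cell types and its log2 fold change was -0.58 (edgeR adjusted p = 0.118).

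E2f8 (chromosome 7, 48866429 to 48881596, minus strand), the atypical partner of E2F7, pointed the other way from E2f6 and E2f7. It had 11.1, 6.71, 7.67 and 3.18 CPM in MEFs and 11.6, 14.0 and 12.3 CPM in mESCs. All mESC libraries were higher, but the ratio of 1.74 was not called (95% interval 0.981 to 3.09, edgeR adjusted p = 0.103).

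For 5 of the 10 genes the MEF and mESC levels were fully apart, 2 of them higher and 3 lower in mESCs. The same held for 52.1% of all tested genes, 25.9% higher and 26.2% lower. The choice of scaling mattered for the genes near the threshold. Without TMM, with scaling by library size alone, the median over all genes went up by 0.28 on the log2 scale, and E2f1, E2f2 and E2f4 were then also called higher, while E2f7 was no longer called lower. With that scaling 51.4% of all tested genes were called, 31.2% higher and 20.2% lower. No member changed its direction under that scaling. The groups of Rb1, E2f1, E2f2 and E2f4 were then apart, and those of E2f7 overlapped. The share of all genes called was 48.1% with the size factors of DESeq2 in edgeR, 50.3% with DESeq2 itself, 23.8% without a filter beyond 1 count, 51.4% with 10 counts required in all libraries of at least 1 cell type and 34.4% against a fold change of 1.5. It was 46.5%, 46.2%, 44.8% and 45.7% without MEF O1, O2, O3 and O4 in turn, and 40.8%, 41.3% and 40.8% without mESC Y1, Y2 and Y3.

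**Figure D2:**
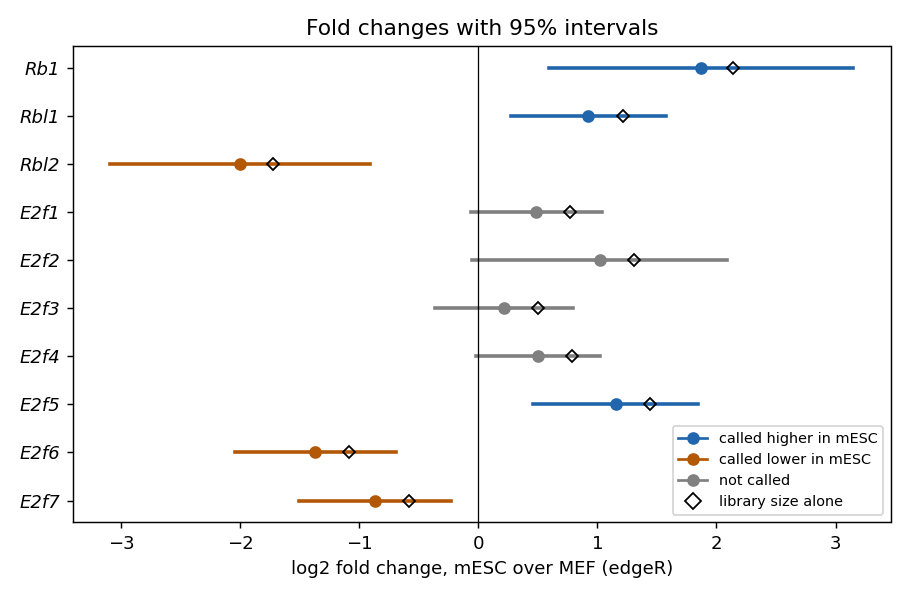
log2 fold change of each family gene, mESC over MEF, from edgeR (4 MEF and 3 mESC libraries). Filled points with bars give the estimate and 95% interval, in blue for genes called higher, brown for genes called lower and grey for genes not called; open diamonds give the estimate with scaling by library size alone. The intervals of E2f1, E2f2, E2f3 and E2f4 span 0, and each diamond lies to the right of its point.

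Within the counts of E2f1 to E2f7 together, which do not depend on the scaling between libraries, the shares of E2f6 and E2f7 were lower in every mESC library. E2f6 took 12.4% to 17.9% in MEFs and 3.75% to 7.24% in mESCs, and E2f7 took 17.2% to 25.7% in MEFs and 7.24% to 13.6% in mESCs. The share of E2f5 was 4.35% to 6.73% in MEFs and 10.4% to 11.6% in mESCs. E2f1 took 11.04% to 15.8% in MEFs and 16.2% to 19.6% in mESCs, so its shares did not overlap although its CPM did. The activators E2f1, E2f2 and E2f3 together took 37.9% to 51.1% in MEFs and 47.2% to 56.0% in mESCs, which overlapped.

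**Figure D3:**
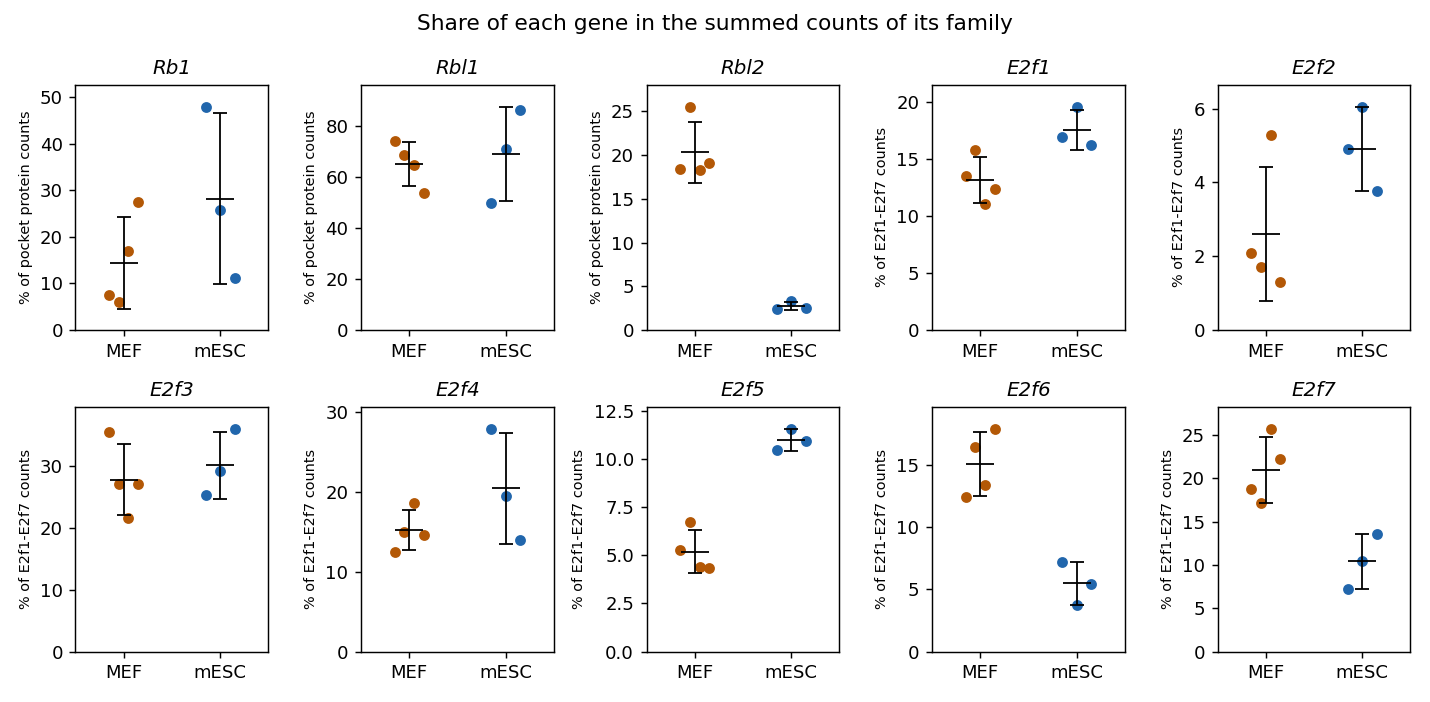
Share of each gene in the summed counts of its family, in percent: the pocket protein genes of Rb1, Rbl1 and Rbl2 counts, and the E2F genes of E2f1 to E2f7 counts. Points are libraries (4 MEF in brown, 3 mESC in blue), bars give the mean and SD, and axes start at 0. The share of Rbl2 is 18.3% to 25.5% in MEFs and 2.41% to 3.30% in mESCs.

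The counts called in the 10 lists below stand beside 22.8% of all tested genes called higher and 25% called lower. The dimer partners of the E2Fs did not move together. Tfdp2, which encodes a DP protein that pairs with E2Fs on DNA, was higher in mESCs, with 41.8 to 55.1 CPM in MEFs and 130 to 182 CPM in mESCs (log2 fold change 1.69, edgeR adjusted p = 1.60e-05). Tfdp1, the other DP gene, overlapped between the cell types, with 94.8 to 221 CPM in MEFs and 69.7 to 154 CPM in mESCs (edgeR adjusted p = 0.220). With E2f8 these form a list of 3, of which 2 were called higher without MEF O1.

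The kinases and cyclins that inactivate pocket proteins were mostly lower in mESCs, and so were their inhibitors. Of 9 G1 cyclin and kinase genes, 5 were lower (Ccnd1, Ccnd2, Ccne2, Cdk4 and Cdk6), Ccne1 was higher, and Ccnd3, Ccna2 and Cdk2 were not called. Of all tested genes, 25% were called lower and 22.8% higher. Ccnd2, which encodes one of the D-type cyclins that start RB phosphorylation, fell from 2895 to 3778 CPM in MEFs to 54.1 to 62.3 CPM in mESCs (log2 fold change -5.88, edgeR adjusted p = 5.95e-09). The D cyclin kinase gene Cdk6 had a log2 fold change of -2.13 and Ccnd1 one of -1.72. Ccne1, the cyclin of CDK2, rose from 44.7 to 70.0 CPM in MEFs to 101 to 107 CPM in mESCs (log2 fold change 0.76, edgeR adjusted p = 0.00463).

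Of 7 CDK inhibitor genes, 5 were lower in mESCs and Cdkn1b and Cdkn2a were not called. Cdkn1c, the gene of p57, had 706 to 2318 CPM in MEFs and 20.3 to 43.3 CPM in mESCs (log2 fold change -5.58, edgeR adjusted p = 1.05e-05). Cdkn2b, which encodes the CDK4 and CDK6 inhibitor p15, had a log2 fold change of -3.94, and Cdkn2c, the gene of p18, one of -2.74 with 0, 4 and 13 counts in the mESC libraries. Cdkn2c passed the filter on low counts through MEFs alone. The list had a median log2 fold change of -1.44.

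Of the 7 genes of the MuvB core and its partners, which join p130 and E2F4 in the DREAM complex of resting cells or B-MYB in dividing ones, 3 were higher in mESCs. Mybl2, the gene of B-MYB and a known E2F target, had 2.11, 2.44, 2.16 and 2.07 CPM in MEFs and 55.9, 56.6 and 39.5 CPM in mESCs. The groups were far apart, and the log2 fold change was 4.52 (edgeR adjusted p = 1.66e-07). Lin9 and Rbbp4 rose by 0.54 and 0.40 on the log2 scale, while Lin37, Lin52, Lin54 and Foxm1 were not called. Only 1 of the 7 was called higher without MEF O2, MEF O4, mESC Y1 or mESC Y2. Foxm1, the forkhead factor of the same late programme, had 12.9 to 26.4 CPM in MEFs and 12.2 to 17.7 CPM in mESCs.

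Among 9 chromatin factors known to bind RB, 3 were higher (Hdac1, Arid4a and Kdm5a) and 3 lower (Hdac2, Suv39h1 and Smarca2) in mESCs. The shares over all tested genes were 22.8% higher and 25% lower. The histone deacetylase genes moved in opposite directions, Hdac1 by 0.76 and Hdac2 by -0.52. Smarca2, which encodes the remodeller BRM, had 77.0 to 136 CPM in MEFs and 6.82 to 12.4 CPM in mESCs (log2 fold change -3.52, edgeR adjusted p = 2.99e-06). Its paralog Smarca4 overlapped between the cell types, with 226 to 265 CPM in MEFs and 234 to 248.7 CPM in mESCs, and Arid4b and Dnmt1 were not called either. Without mESC Y2 only 1 of the 9 was called higher.

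The polycomb complex that contains E2F6 had 4 of 9 listed genes higher and 2 lower in mESCs, where E2f6 itself was lower. Among all tested genes, 22.8% were called higher and 25% lower. Pcgf6, L3mbtl2 and Mga, which encode subunits that set this complex apart from other polycomb complexes, had log2 fold changes of 1.14, 1.79 and 1.63. Mga had 49.6 to 66.8 CPM in MEFs and 178 to 191 CPM in mESCs. The alternative subunits RYBP and YAF2 went opposite ways, as Rybp had 5.15 to 11.9 CPM in MEFs and 20.8 to 32.3 CPM in mESCs, and Yaf2 45.8 to 65.1 CPM and 8.02 to 13.3 CPM. Cbx3 was lower by 0.73 on the log2 scale, and Max, Rnf2 and Ring1 were not called.

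Germline genes known to be silenced through E2F6 were low in MEFs, some of them at or under the floor, and 4 of the 6 had at least 77 counts in every mESC library. Of 6 such genes, 4 were called higher in mESCs, and Slc25a31 and Tuba3b had too few counts to be tested, with 5, 0 and 5 and 1, 25 and 14 counts in mESC Y1 to Y3. Stag3, Tuba3a and Hsf2bp passed the filter through mESCs alone, so their calls were largely fixed by it and the count of 4 is only a description. Hsf2bp, which acts in meiotic recombination, had 1.34, 2.13, 0.599 and 1.27 CPM in MEFs and 88.8, 113 and 118 CPM in mESCs (log2 fold change 6.33, edgeR adjusted p = 1.06e-07). Stag3, a meiotic cohesin gene, had 3 to 6 counts in each MEF library and 8.35, 15.6 and 12.6 CPM in mESCs. Smc1b, another meiotic cohesin gene, had 15, 0, 41 and 15 counts in MEF O1 to O4 and 36.0, 80.8 and 54.4 CPM in mESCs. Tuba3a had 1, 0, 3 and 0 counts in MEFs and 338, 678 and 333 in mESCs, and reads that fit both Tuba3a and its near-identical copy Tuba3b could have been split or left out. Both cell types transcribe E2f6, and the lower E2f6 level went with the higher level of these genes across only 2 cell types, so a link between them was not tested.

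The S phase genes that E2F activates were mostly higher in mESCs. Of 30 G1/S targets, 23 were higher and Rrm1 was lower, while Rrm2, Tyms, Tk1, Chaf1a, Fen1 and Gins2 were not called. The list had a median log2 fold change of 1.121. All 6 genes of the MCM2 to MCM7 helicase were higher, with log2 fold changes from 0.71 (Mcm4) to 1.94 (Mcm7), and Mcm10 rose by 2.01. Cdt1, which loads that helicase, had 23.1 to 31.2 CPM in MEFs and 112 to 114 CPM in mESCs. The largest changes were those of Msh6, a mismatch repair gene (log2 fold change 3.27, edgeR adjusted p = 2.20e-07), Brca1, a gene of recombination repair (2.58), and Orc1, an origin recognition gene (2.08). Of the ribonucleotide reductase genes, Rrm1 fell by 0.81 on the log2 scale, and Rrm2 ranged from 212 to 747 CPM in MEFs and from 304 to 681 CPM in mESCs.

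Of the 25 G1/S targets with a promoter in the RefSeq set, 12 held an E2F form as in Rbl1, E2f3 and E2f7, where 2.6% of all 27025 genes with a promoter did. All 12 were called higher in mESCs, with a median log2 fold change of 1.31. Of the 13 without these letters, 7 were called higher and 1 lower, with a median of 0.99. No test of this difference was made, and absence of these exact letters does not mean absence of a site.

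Of 21 G2/M genes regulated by DREAM and by B-MYB with MuvB, 14 were higher in mESCs and none was called lower by edgeR at an adjusted p under 0.05, with a median log2 fold change of 1.04. Cenpf, Bub1b and Ccnb1, genes of the kinetochore, the spindle checkpoint and mitotic entry, had log2 fold changes of 1.53, 1.45 and 1.42. The proliferation marker Mki67 was not called, with 90.1 to 127 CPM in MEFs and 114 to 143 CPM in mESCs, and neither were Cdk1, Plk1, Cenpe, Kif20a, Birc5 and Tpx2. In this list 13 of 18 genes with a promoter held the CHR letters, against 20.2% of all genes, and 10 of these 13 were called higher, with a median log2 fold change of 1.08. Of the 5 without these letters, 3 were called higher, with a larger median of 1.31.

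Of 7 apoptosis genes under E2F1, 3 were higher in mESCs, among them Trp73 and Pmaip1, and Apaf1 was lower. Over all tested genes the shares called were 22.8% higher and 25% lower. Pmaip1, which encodes the BCL2 inhibitor NOXA, rose from 38.8 to 65.1 CPM in MEFs to 255 to 398 CPM in mESCs (log2 fold change 2.69, edgeR adjusted p = 3.76e-06). Trp73, the gene of the p53 relative p73, had 1 or 2 counts in each MEF library and 61, 13 and 46 counts in the mESC libraries, through which alone it passed the filter. Apaf1, the apoptosome gene, fell by 0.48 on the log2 scale (edgeR adjusted p = 0.0325), and this call was lost without MEF O2, MEF O3, MEF O4, mESC Y2 or mESC Y3, each left out in turn. Bbc3 and Bcl2l11 were among those not called.

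**Figure D4:**
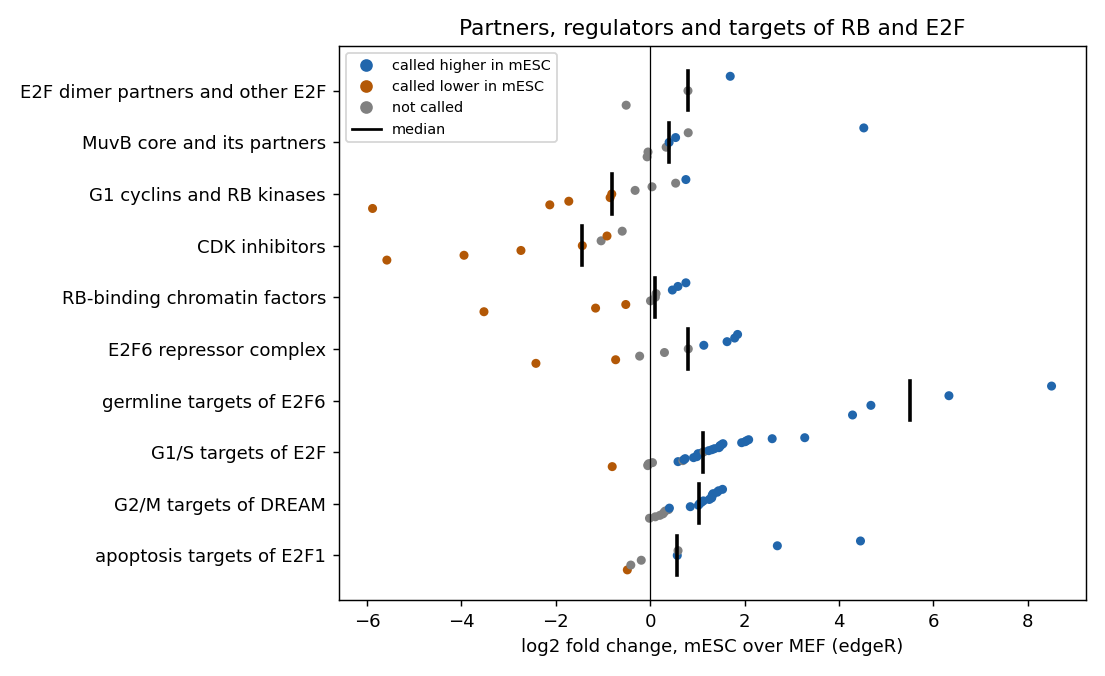
log2 fold change, mESC over MEF, of the tested genes in 10 lists of RB and E2F partners, regulators and targets. Each point is a gene, in blue if called higher, brown if called lower and grey if not called, and black bars are list medians. The points of Tuba3a and Trp73, with 0 to 3 counts in each MEF library, depend on the prior count of the fit. The G1/S and G2/M target lists lie mostly to the right with medians of 1.121 and 1.04, and the CDK inhibitors lie to the left with a median of -1.44.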

How the data were processed

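Counts per gene were taken from 4 libraries of MEFs and 3 of mESCs. These RNA-seq libraries were 3′-biased and carried unique molecular identifiers. The authors aligned reads to mm10 with STAR (2.4.2a in the submitters' processing notes; the study's methods name another version), collapsed identifiers with Je, assigned reads with a unique position to exons by featureCounts and deposited the counts without normalization. The annotation release and strand setting are not given in the sources used here. All 7 columns were used. Their names give the cell type, but all begin with MEF1 or mESC1 and so do not tell samples apart.

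The cell types were compared in R 4.3.3 by edgeR 4.0.16, which builds on limma 3.58.1. All 7 libraries entered 1 quasi-likelihood fit with no covariate, after TMM and filterByExpr (10 counts), with Benjamini-Hochberg adjustment over 16580 genes and a threshold of 0.05. Standard errors are the log2 fold change divided by the square root of F, and 95% intervals use the test's degrees of freedom. log2CPM used a prior count of 2. No 2 libraries of a cell type agreed within sampling noise (chi-square per degree of freedom 15.6 to 31.1). The code was tested on simulated counts. Levels were compared within genes, not between genes.

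The 10 members and the 10 pathway lists were chosen with earlier results of these data known. Named from each list were the 3 called genes with the largest change whose libraries did not overlap, and genes not called or not tested where 5 or fewer; other genes were chosen after their values were seen. Alternatives were DESeq2 1.42.0, its size factors in edgeR, library size alone, no filter beyond 1 count, 10 counts required in all libraries of at least 1 cell type, a test against a fold change of 1.5, E2f8 added to the E2F sum, and leaving out each library. Gene positions and overlaps are from GENCODE M21 on GRCm38. Some genes of the pathway lists are counted but not reported here by name.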

Additional observations from a re-analysis of the deposited data

Results flagged for a closer look

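L3mbtl2, a subunit gene of the E2F6 complex, was low in MEF O3. It had 3.07 log2CPM there and 3.78 to 3.92 log2CPM in the others. The gap was 0.834 of the range of the 4 libraries, just past the critical value of 0.829. This was 1 of 42 named genes examined in MEFs, where chance gives about 2.1. No family member met this criterion.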

How the results depend on the processing

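No paired analysis was possible because the count columns could not be matched to single samples of the labels. Rbl2, E2f5 and E2f6 kept their direction and call in all 13 alternatives. Of these, Rbl2 passed the filter of the main fit through its MEF libraries alone. With scaling by library size alone, the log2 fold changes of E2f1, E2f2 and E2f4 were 0.77, 1.30 and 0.78 and now called, E2f7 was lost at -0.58, 6 members were called higher, and 2 genes of the dimer partner list, 2 G1 cyclins and RB kinases were called higher, 1 gene of the E2F6 complex and 0 apoptosis targets lower. This follows from the upward shift of all genes. Against a fold change of 1.5, a stricter test by construction, Rbl1 (0.93) and E2f7 (-0.87) were not called, and the numbers called higher were 1 for MuvB, 0 for G1 cyclins and kinases and 0 for RB-binding chromatin factors, with 1 gene of the E2F6 complex, 0 G1/S targets and 0 apoptosis targets lower. Without a filter beyond 1 count, 1 dimer partner was lower and 1 MuvB gene higher; the cause was not tested. Leaving out a library gave log2 fold changes of 1.34 to 2.25 for Rb1, 0.74 to 1.14 for Rbl1, 0.79 to 1.52 for E2f2, -0.040 to 0.38 for E2f3 (its sign turned without mESC Y3, at -0.04) and -1.21 to -0.62 for E2f7, 1 to 2 dimer partners, 1 to 3 MuvB genes and 1 to 3 chromatin factors called higher, and 0 to 1 apoptosis targets lower. The 11 shares moved by less than the spread between libraries in all 85 alternatives. Depth limits Rbl2 in mESCs, with 6 to 9 counts a library, and Rb1 in MEFs, with 6 to 24.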

Other observations

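Within the mESC libraries, family members varied in opposite ways. mESC Y1 had the highest levels of Rb1 and E2f4 and the lowest of Rbl1, E2f1, E2f3, E2f5 and E2f7, and mESC Y3 had the lowest levels of Rb1 and E2f4 and the highest of Rbl1, E2f3, E2f5 and E2f7. For E2f1 and E2f5 the counting intervals of mESC Y1 and mESC Y3 overlapped. They were 14.7 to 20.1 and 17.4 to 23.6 CPM for E2f1, and 8.62 to 12.9 and 11.3 to 16.4 CPM for E2f5. Of the early differentiation genes, Gata6 (26.0, 15.5 and 8.85 CPM) and Sox17 (5.53, 4.66 and 1.06 CPM) followed the order of Rb1 and E2f4 over mESC Y1 to Y3. So did Foxa2, while Gata4 did not. The part of these genes was not tested. The mean level of the 30 G1/S targets hardly differed between the mESC libraries, with 6.34 log2CPM in mESC Y1 and 6.37 in mESC Y3.

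The MEF libraries fell into pairs for some genes outside the family. The G1/S targets averaged 5.43 and 5.38 log2CPM in MEF O1 and O2 and 5.05 and 4.97 in MEF O3 and O4. Cdkn1c had 706 and 857 CPM in the former and 2178 and 2318 CPM in the latter, and the fibroblast collagen gene Col3a1 had 1541 and 1948 against 3701 and 3589 CPM. E2f1 followed the same split, with 14.97 and 18.3 against 10.5 and 12.2 CPM, and Rb1 ran the other way, with 1.34 and 0.915 against 2.88 and 3.66 CPM. For both genes the counting intervals of MEF O1 and MEF O3, which lie in different pairs, overlapped. They were 12.7 to 17.5 and 8.46 to 13.0 CPM for E2f1, and 0.734 to 2.25 and 1.84 to 4.28 CPM for Rb1. These pairs were seen in the data and are not labelled groups.

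The genes whose centred log2CPM profile over the 7 libraries lay closest to that of Rbl2 were Peak1, Entpd7 and Msra, at root mean square distances of 0.10, 0.11 and 0.12 on the log2 scale.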
